A study of Mus musculus with 96 samples.

Results

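The livers compared here came from male C57BL/6J mice, 3 to 4 months old, that carried a floxed Rbbp5 gene on both chromosomes and no Cre transgene. Their genotype was Rbbp5 (flox/flox); Alb-CRE (-/-), and they are called Flox. After 2 weeks of 12 h light and 12 h darkness the animals spent 24 h in constant darkness. They were then killed every 2 h across 48 h of further darkness, with food always present, and the polyadenylated RNA of each liver was sequenced. The comparison sets 18 livers of the second day, circadian time (CT) 24 to 40, against 18 livers of the first day, CT0 to CT16. Each of 9 times of day holds 2 livers on each day, so that a liver taken at CT26 is matched with those taken at CT2. These 36 of the 96 libraries of the series were chosen by their labels alone. Both days share genotype, sex, age and feeding, and the second-day animals had spent 24 h longer in darkness. The order of killing, RNA preparation and sequencing may have followed the same split, and these cannot be told apart from time in darkness. The labels number the livers of a time point by letters and do not say whether a letter marks a shared litter, cage or batch, so the p-values measure the spread between these livers. Littermates with Rbbp5 (flox/flox); Alb-CRE (+/-), called LKO, enter 1 comparison further on. Their Cre is driven by the albumin promoter, which is active in hepatocytes, so other liver cells should keep the gene.

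In constant darkness the liver keeps time through a loop in which ARNTL and CLOCK activate the Per and Cry genes, whose proteins then repress ARNTL and CLOCK. NR1D1, NR1D2 and the ROR receptors form a further loop, and DBP and TEF carry the rhythm to metabolic genes. Feeding imposes a second daily pattern. PPARA, a nuclear receptor for fatty acids, switches on fat oxidation and the Cyp4a and Acot genes when fat is being burned, whereas SREBP factors switch on fat and cholesterol synthesis after meals. Hepatocytes also make the acute phase proteins, chiefly in answer to interleukin 6 acting through STAT3 and C/EBP factors, and in male mice pulses of growth hormone acting through STAT5 sustain the major urinary proteins.

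Values are FPKM, fragment counts scaled by transcript length and by the size of the library, as the authors deposited them. Differences are second day minus first day on the log2(FPKM + 1) scale, with their standard error (SE), from a linear model with time of day as a factor and limma's moderated test. Of 13094 entries in the table, 9414 with a mean of at least 1 FPKM were tested, and p-values were adjusted over all of them by the Benjamini-Hochberg method with a threshold of 0.05. The pseudocount of 1 understates the change of genes at low levels.

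The libraries themselves differed between the days. All were liver, with albumin (Alb) at 12269 to 18096 FPKM on the first day and 9590 to 19227 FPKM on the second. The sum of all FPKM was 366574 ± 27413 (SD, n = 18) on the first day and 417605 ± 32788 (SD, n = 18) on the second (two-sided permutation test with 100000 resamples, p = 4e-05). Relative sequencing depth, recovered from the steps between low values, ran from 0.795 to 1.20 times the average on the first day and from 0.842 to 1.25 times on the second, and the absolute depth is unknown. In each library the median log2 deviation of the shortest quartile of transcripts minus that of the longest quartile was taken as a length measure. It was -0.19 ± 0.24 (SD, n = 18) on the first day and 0.20 ± 0.32 (SD, n = 18) on the second, and all 12 first-day libraries of CT0 to CT10 lay below 0. The ribosomal RNA precursor Rn45s, which messenger RNA selection should remove, was at 1388 ± 543 FPKM on the first day and 2452 ± 1488 FPKM on the second. Rbbp5, floxed in all of these animals, was at 3.47 ± 0.54 FPKM on the first day and 3.16 ± 0.53 FPKM on the second (SD, n = 18 each; difference -0.10, SE 0.06, limma adjusted p = 0.136). In LKO liver it was at 2.60 ± 0.71 FPKM and 1.96 ± 0.30 FPKM on the same days.

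More of the liver's transcripts fell than rose by the second day. Of the entries tested, 1261 were higher (13.4%) and 3567 lower (37.9%), and the median difference over all entries was -0.09. Large changes were few, with 19 called entries higher by at least 1 log2 unit and 17 lower by as much. The balance depended on the scaling. Among called entries 26.1% were higher with the values as deposited, 57.8% after median-ratio scaling, which moved the median of all entries by 0.11, and 50.5% after quantile normalization, so the lists described first below are also given under these scalings. Median-ratio scaling called 2528 of all 9414 entries higher and 1848 lower, and quantile normalization 2148 and 2107. The list counts under a scaling are to be read beside these. The calls also rested on the earlier part of the day. Taken alone, CT0 to CT4 gave 951 higher and 2492 lower, CT6 to CT10 gave 1139 and 2659, and CT12 to CT16 gave none in either direction with the 12 libraries of each window. Leaving out CT0 and CT2 with their matches CT24 and CT26, a choice made after seeing the data, left 196 higher and 1034 lower. With log2 Rn45s as a covariate 128 were higher and 717 lower, and the livers of letter B alone, 9 of each day, gave 4 and 20. List counts under these alternatives are likewise to be read beside the counts of all entries given here.

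The largest falls were those of Cyp4a14 and Cyp4a10, known targets of PPARA, and other large falls lay in fat synthesis, glucuronidation and glycogen genes described further on. Of the 22 tested members of the list for the fasting response, insulin and FOXO, 13 were lower (59.1%) and 1 was higher, with a median of -0.36, against 37.9% lower and a median of -0.09 over all entries. Of the 32 members of the list for fatty acid oxidation and ketone formation, 14 were lower and 1 was higher, with a median of -0.16, and their 43.8% lower is near the share of all entries. The lists overlap, since both hold the Cyp4a and some Acot genes. After median-ratio scaling 11 and 8 members were lower, after quantile normalization 13 and 21, and with log2 Rn45s as a covariate 6 and 6.

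Cyp4a14, a fatty acid omega-hydroxylase (chr4:115486200-115496142, minus strand, GENCODE M21 on GRCm38), showed the largest drop. It ranged from 4.28 to 104 FPKM with a median of 51.5 on the first day, and from 0.264 to 31.7 FPKM with a median of 6.61 on the second. All 18 second-day livers lay below the first-day median, 8 of them below the lowest first-day liver, and the 2 ranges still overlapped. The difference was -2.46 (SE 0.36, limma adjusted p = 0.00019), and the second day was lower at 9 of 9 times. Its neighbour Cyp4a10, an enzyme of the same kind, ran from 15.8 to 169 FPKM (median 69.3) on the first day and from 3.32 to 64.4 FPKM (median 21.6) on the second. Again every second-day liver was below the first-day median. The difference of Cyp4a10 was -1.55 (SE 0.23, limma adjusted p = 0.000189). These genes have near-identical relatives in the same cluster, and reads shared with Cyp4a31 or others could be divided between them, so the split between the Cyp4a genes is uncertain.

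The acyl-CoA thioesterases, which release fatty acids from coenzyme A, moved with them. Acot1 was at 19.6 ± 6.26 FPKM on the first day and 9.81 ± 5.40 FPKM on the second (SD, n = 18 each), a difference of -1.03 (SE 0.17, limma adjusted p = 0.000309). Acot3 fell by 1.27 (SE 0.18), Acot4 fell by 0.96 (SE 0.14) and Acot2 fell by 0.63 (SE 0.10), with limma adjusted p of 0.000164, 0.000189 and 0.00019. In 11 of 18 second-day livers Acot1 was below every first-day liver, and the same count held for Acot4. The Acot genes sit side by side on chromosome 12, and Acot1 and Acot2 are close copies whose reads may be shared.

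Cd36 (chr5:17781690-17888801, minus strand), a fatty acid uptake receptor that is lower in male than in female mouse liver, ranged from 1.64 to 13 FPKM (median 6.72) on the first day and from 1.22 to 4.77 FPKM (median 2.63) on the second. No second-day liver reached the first-day median. Its difference was -1.08 (SE 0.14, limma adjusted p = 0.000143). Ehhadh, the bifunctional enzyme of peroxisomal oxidation, fell by 0.80 (SE 0.13, limma adjusted p = 0.000309). Members named for their role, outside the naming rule, were Ppara itself, at 29.3 ± 9.32 and 20.1 ± 7.65 FPKM on the 2 days, which fell by 0.57 (SE 0.14, limma adjusted p = 0.00202), and Cpt1a, the gate of mitochondrial fat oxidation, which fell by 0.38 (SE 0.08, limma adjusted p = 0.000969).

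**Figure D1:**
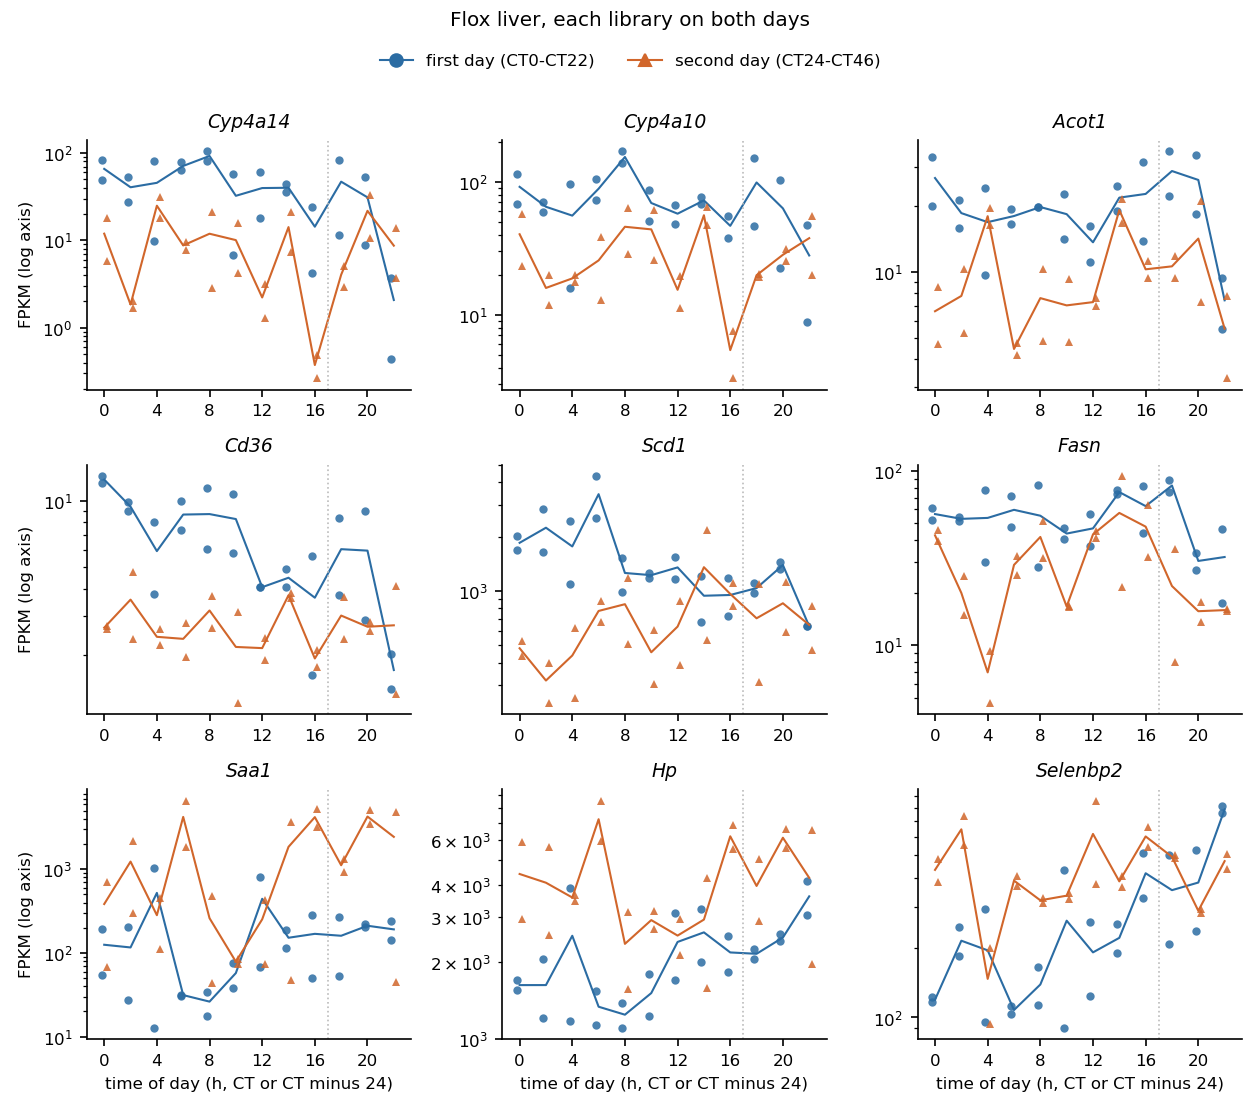
Level of 9 genes in every Flox liver by time of day, in FPKM on a log axis; circles are first-day livers, triangles second-day livers, and lines join the means of the 2 livers of a time. The dotted line marks where the 9 matched times end. All 18 second-day points of Cyp4a14, Cyp4a10 and Cd36 lie below the first-day medians of 51.5, 69.3 and 6.72 FPKM, whereas Saa1 scatters from 44.1 to 6579 FPKM on the second day.

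Fat synthesis fell as well. Of 26 tested genes for fatty acid and triglyceride synthesis, 17 were lower (65.4%) and 1 was higher, with a median of -0.43, against 37.9% lower over all entries. After median-ratio scaling 16 were lower and 4 higher, and after quantile normalization 17 were lower and 2 higher. With log2 Rn45s as a covariate 8 were lower and 1 higher. Scd1, the desaturase that makes oleate (chr19:44394455-44407879, minus strand), ran from 668 to 4328 FPKM (median 1395) on the first day and from 239 to 2174 FPKM (median 570) on the second. Its difference was -1.33 (SE 0.25, limma adjusted p = 0.00053), and it was -2.26 at CT0 to CT4, -1.43 at CT6 to CT10 and -0.30 at CT12 to CT16. At CT6 the 2 first-day livers averaged 3435 FPKM and the 2 livers of CT30 averaged 774 FPKM. By the end of the day the levels overlapped, with means of 949 FPKM at CT16 and 962 FPKM at CT40.

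Fasn, fatty acid synthase, was at 56.3 ± 17.5 FPKM on the first day and 33.9 ± 21.4 FPKM on the second (SD, n = 18 each; difference -0.92, SE 0.21, limma adjusted p = 0.00144) and was lower at 9 of 9 times. Acly, which supplies cytosolic acetyl-CoA, fell by 0.86 (SE 0.16), and the elongase Elovl5 fell by 0.82 (SE 0.15), with limma adjusted p of 0.000471 and 0.000456. The desaturase Fads1 fell by 0.40 (SE 0.08, limma adjusted p = 0.000746). Srebf1, which codes for the factor that drives this programme and was named for that role, fell by 0.41 (SE 0.09, limma adjusted p = 0.00143). In the list for cholesterol synthesis and uptake 11 of 27 were lower and none higher, and that 40.7% is near the 37.9% of all entries. The time course of 15 of the 27 cholesterol genes differed between the days by the test described below, which called 20.5% of all entries.

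In the list for glycolysis, gluconeogenesis and glycogen 12 of 28 genes were lower (42.9%, near the 37.9% of all entries) and 2 higher, and median-ratio scaling gave 7 lower and 5 higher. Gbe1, the glycogen branching enzyme, ranged from 6.93 to 22.8 FPKM (median 17.9) on the first day and from 3.18 to 23.0 FPKM (median 9.43) on the second. The upper ends of the ranges met, while 17 of 18 second-day livers were below the first-day median. Gbe1 fell by 0.88 (SE 0.17, limma adjusted p = 0.000588). Among urea cycle and amino acid breakdown genes 17 of 40 were lower and 2 higher, near the share of all entries, with an even 6 lower and 5 higher under median-ratio scaling. Aldh4a1 of proline breakdown differed by -0.56 (SE 0.09, limma adjusted p = 0.000294). Of 27 bile acid genes 11 were lower (40.7%, again near the share of all entries) and 1 higher, and 5 and 2 under median-ratio scaling. Akr1d1, a reductase of bile acid synthesis, fell by 0.67 (SE 0.12), the canalicular exporter Abcc2 fell by 0.80 (SE 0.15) and Klb, the FGF co-receptor that restrains synthesis, fell by 0.56 (SE 0.12), with limma adjusted p of 0.000404, 0.000475 and 0.000814.

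Among drug-handling genes 8 of 31 P450 genes and regulators were lower and 2 higher, below the share of all entries for the lower direction. Median-ratio scaling gave 5 lower and 7 higher, where 1848 of all 9414 entries were lower and 2528 higher. Cyp2b10, the classic target of the xenobiotic receptor CAR, fell by 0.80 (SE 0.14) from 1.81 ± 0.97 to 0.60 ± 0.51 FPKM, and Cyp2c29 fell by 0.82 (SE 0.17) from 381 ± 79.6 to 237 ± 111 FPKM (SD, n = 18 each; limma adjusted p = 0.000352 and 0.000746). The Cyp2b and Cyp2c families are rich in near-copies, so their reads may be shared. Ugt1a5, a glucuronidating enzyme, fell by 1.25 (SE 0.22, limma adjusted p = 0.000408); the Ugt1a genes share their last exons, and the split between them is uncertain. A1cf, the RNA-binding partner of the Apob editing enzyme, fell from 20.2 ± 5.96 to 10.3 ± 5.69 FPKM (SD, n = 18 each; limma adjusted p = 0.000471). Of 29 glutathione and NRF2 genes 12 were lower (41.4%, near the 37.9% of all entries) and 1 was higher, with 6 lower and 4 higher under median-ratio scaling. The 1 higher in the values as deposited was Gstp1, a glutathione transferase typical of male liver, which ran from 749 to 2240 FPKM (median 1426) on the first day and from 1371 to 3663 FPKM (median 2263) on the second, with a difference of 0.74 (SE 0.13, limma adjusted p = 0.000347). Nfe2l2, which codes for NRF2, fell by 0.45 (SE 0.09, limma adjusted p = 0.000585).

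The acute phase genes rose. Of 31 tested, 18 were higher and none was lower, with a median of 0.45, set against 13.4% higher and a median of -0.09 over all entries. After median-ratio scaling 22 were higher and none lower, and after quantile normalization 14 were higher and 2 lower. With log2 Rn45s as a covariate 6 were higher, and without CT0, CT2, CT24 and CT26 8 were, with none lower in either. Saa1 and Saa2 code for serum amyloid A, carried on high-density lipoprotein in inflammation, and lie next to each other on chromosome 7. The RefSeq promoters (250 bases before and 50 after the start, GRCm38.p6) of Saa1 (chr7:46742931-46743230, minus strand), of Saa2 (chr7:46751583-46751882, plus strand) and of Orm2 (chr4:63362199-63362498, plus strand), another acute phase gene, each hold 1 match to the C/EBP letters TTGCNCAA. The letters were searched on both strands and are shown in capitals. They are shown because these 3 genes were among the entries with the largest rise.
Saa1: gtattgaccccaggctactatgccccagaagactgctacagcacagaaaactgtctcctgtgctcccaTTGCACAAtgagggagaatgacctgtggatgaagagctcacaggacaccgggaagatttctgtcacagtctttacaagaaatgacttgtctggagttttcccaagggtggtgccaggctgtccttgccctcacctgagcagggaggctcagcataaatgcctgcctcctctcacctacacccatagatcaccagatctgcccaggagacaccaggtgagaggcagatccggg
Saa2: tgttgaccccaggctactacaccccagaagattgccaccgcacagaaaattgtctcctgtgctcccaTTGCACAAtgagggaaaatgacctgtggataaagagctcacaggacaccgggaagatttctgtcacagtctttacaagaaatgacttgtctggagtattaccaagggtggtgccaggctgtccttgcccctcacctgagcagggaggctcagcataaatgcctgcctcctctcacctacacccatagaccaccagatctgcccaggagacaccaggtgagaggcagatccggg
Orm2: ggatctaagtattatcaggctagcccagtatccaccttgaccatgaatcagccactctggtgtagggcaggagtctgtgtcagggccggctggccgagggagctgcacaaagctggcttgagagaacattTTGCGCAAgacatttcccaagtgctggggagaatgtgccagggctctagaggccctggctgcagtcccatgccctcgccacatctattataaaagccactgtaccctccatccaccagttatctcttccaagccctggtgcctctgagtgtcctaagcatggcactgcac
The same letters occur in 2.941% of 32851 RefSeq promoters of this length. Of the 9 symbols with the largest rise by the naming rule, 8 had a promoter in the table and 3 held the letters. Of the 10 with the largest fall, 8 had a promoter and 1 held them. The motif was chosen with the results known, and a match is a description of the sequence.

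Saa1 was at 12.8 to 1032 FPKM (median 61.8) on the first day and at 44.1 to 6579 FPKM (median 443) on the second. Above the first-day median lay 16 of 18 second-day livers. The livers labelled CT26 B, CT30 A, CT30 B, CT38 B, CT40 A and CT40 B held 1866 to 6579 FPKM, above every first-day liver, while the other 12 second-day livers lay within the first-day range. The difference was 2.37 (SE 0.71, limma adjusted p = 0.00801), with the second day higher at 8 of 9 times in the mean of log2 values. In mean FPKM Saa1 was lower at CT28 than at CT4 (283 and 522) and lower at CT36 than at CT12 (252 and 444). Saa2 ran from 6.4 to 624 FPKM on the first day and from 12.9 to 6572 FPKM on the second (difference 2.71, SE 0.83, limma adjusted p = 0.00965). Neither passed with log2 Rn45s as a covariate or without CT0, CT2, CT24 and CT26. Their coding sequences are near-identical, and the authors' counting could divide shared reads between them.

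Hp (chr8:109575128-109579172, minus strand), codes for haptoglobin, a binder of free haemoglobin. It ran from 1103 to 3872 FPKM (median 1690) on the first day and from 1562 to 8516 FPKM (median 3305) on the second, with 16 of 18 second-day livers above the first-day median, and was higher at 9 of 9 times, with a difference of 1.03 (SE 0.20, limma adjusted p = 0.00058). Saa3, the form made also outside hepatocytes, rose by 1.49 (SE 0.32, limma adjusted p = 0.00106), and Saa4, the constitutive form, rose by 0.67 (SE 0.14, limma adjusted p = 0.000969). Fgl1, a secreted fibrinogen-like protein, rose by 1.14 (SE 0.30, limma adjusted p = 0.00349), and the orosomucoid Orm2 rose by 1.20 (SE 0.47, limma adjusted p = 0.0374). Lcn2, an iron-scavenging protein of hepatocytes and neutrophils, rose by 1.72 (SE 0.62, limma adjusted p = 0.0237). The metallothioneins Mt1 and Mt2, which bind zinc and answer to glucocorticoids and to interleukin 6, rose by 1.69 (SE 0.54) and 1.97 (SE 0.66), with limma adjusted p of 0.0114 and 0.0155. Gadd45g, a stress-induced growth regulator, rose by 1.08 (SE 0.43, limma adjusted p = 0.0364). Orm2 missed the threshold with 16 of the 36 libraries left out one at a time and Gadd45g with 13, and Mt1, Mt2, Lcn2, Orm2 and Gadd45g missed it once the trend with transcript length described below was removed.

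Neutrophil genes were low throughout. S100a9 was at 0.509 to 5.80 FPKM on the first day and 0.456 to 19.0 FPKM on the second, and S100a8 at 0.124 to 2.98 and 0.126 to 8.99 FPKM. Neither passed (limma adjusted p = 0.0953 and 0.207). Of 18 listed genes of monocytes and neutrophils 9 were under a mean of 1 FPKM, and 2 of the 5 tested, Lcn2 among them, were higher. The summed level of the list ran from 7.13 to 54.8 FPKM (median 12.0) on the first day and from 7.82 to 327 FPKM (median 27.9) on the second. That sum includes Lcn2, which hepatocytes also make and which averaged 216 FPKM at CT30 and 159 FPKM at CT40. It is therefore not a measure of these cells alone. The part of infiltrating cells in the acute phase result was not tested.

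The major urinary proteins, pheromone carriers that male liver secretes in bulk, rose with them. In the list for growth hormone, STAT5, IGF1 and Mup genes 18 of 33 were higher (54.5%) and 2 lower, with a median of 0.49. Over all entries 13.4% were higher and 37.9% lower. The median transcript of the list was 928 bases long, within the shortest quartile of transcripts, of which 39.1% were higher. Median-ratio scaling gave 21 higher and none lower, quantile normalization 13 higher and 2 lower, and log2 Rn45s as a covariate 7 higher and none lower. The larger entry of Mup15 ran from 103 to 2223 FPKM (median 1403) on the first day and from 619 to 4544 FPKM (median 2772) on the second, and 12 of 18 second-day livers exceeded every first-day liver. Its difference was 1.25 (SE 0.32, limma adjusted p = 0.00276), and that of a second entry under the same symbol was 1.56 (SE 0.35, limma adjusted p = 0.00133). Mup13 rose by 0.87 (SE 0.16) and Mup14 rose by 0.90 (SE 0.20), both higher at 9 of 9 times (limma adjusted p = 0.000543 and 0.00113). The Mup genes are near-identical copies on chromosome 4, so the entries may share reads and count as 1 signal rather than many. Selenbp2, a selenium-binding protein, rose by 1.11 (SE 0.20, limma adjusted p = 0.000451), from 207 ± 121 to 430 ± 186 FPKM (SD, n = 18 each). Igf1, the chief endocrine product of growth hormone in liver and named for that role, did not pass at 72.4 ± 9.81 and 79.7 ± 13.1 FPKM (limma adjusted p = 0.0695).

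Other secreted proteins were mixed. Of 37 complement and coagulation genes 11 were higher (29.7%) and 5 lower (13.5%), against 13.4% higher and 37.9% lower over all entries. The mannose-binding lectin Mbl1 rose by 0.51 (SE 0.08), the terminal component C8b rose by 0.41 (SE 0.08) and vitronectin, Vtn, rose by 0.40 (SE 0.08), with limma adjusted p of 0.000309, 0.000585 and 0.000745. After quantile normalization 4 members were higher and 8 lower, so the list has no direction that the scalings share. Of 28 interferon-stimulated genes 10 were higher (35.7%) and 2 lower (7.14%), against the same shares of all entries. With the trend with transcript length described below removed, 4 were higher and 2 lower, where 6.26% and 30.1% of all entries were. Among those higher as deposited were Isg15 at 7.21 ± 1.35 and 11.2 ± 4.10 FPKM (difference 0.51, SE 0.12, limma adjusted p = 0.00145) and the immunoproteasome subunit Psmb8 (difference 0.36, SE 0.08, limma adjusted p = 0.000927).

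**Figure D2:**
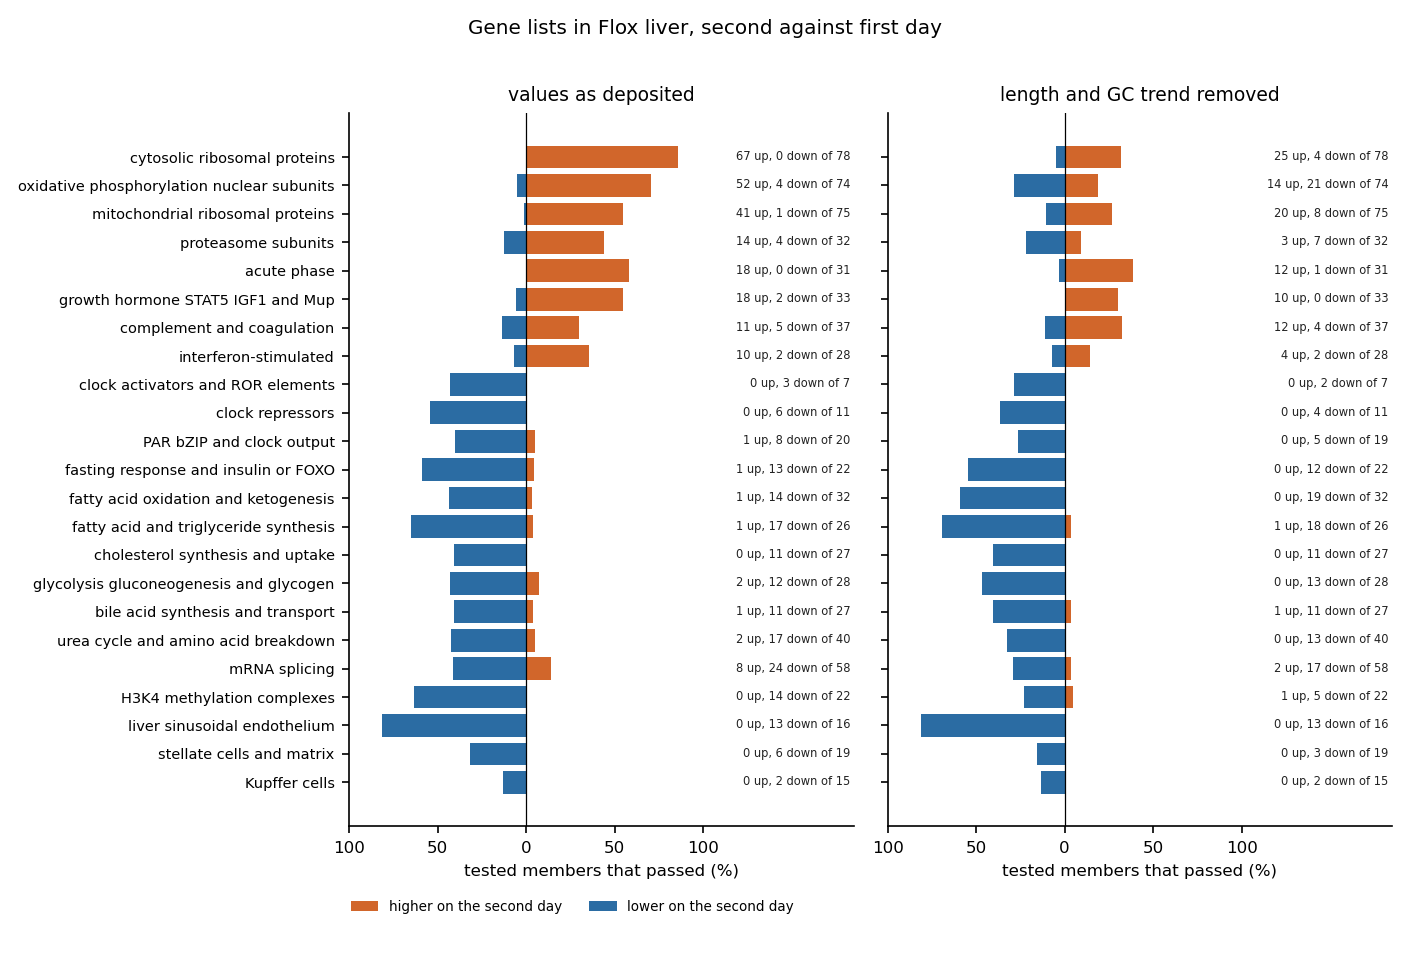
Share of the tested members of each gene list that were higher (orange, to the right) or lower (blue, to the left) on the second day, in percent, with the counts beside the bars; the left panel uses the values as deposited and the right panel the values after the trend with transcript length and GC content was removed from each library. Cytosolic ribosomal proteins go from 67 higher to 25 of 78, and oxidative phosphorylation from 52 higher and 4 lower to 14 higher and 21 lower of 74.

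The 3 lists with the most members higher were those of short transcripts. Of 78 cytosolic ribosomal protein genes 67 were higher and none lower, with a median of 0.36. Of 74 nuclear genes for oxidative phosphorylation 52 were higher and 4 lower, with a median of 0.30, and of 75 mitochondrial ribosomal protein genes 41 were higher and 1 was lower. These are 85.9%, 70.3% and 54.7% higher, against 13.4% of all entries and 39.1% of the shortest quartile of transcripts. Rpl13a was at 73.3 ± 16.8 FPKM on the first day and 114 ± 38.8 FPKM on the second (SD, n = 18 each; difference 0.59, SE 0.13, limma adjusted p = 0.00102). Ribosomal protein genes have many processed pseudogenes that can share reads. Uqcrq, a short subunit of complex III, rose by 0.49 (SE 0.11, limma adjusted p = 0.00165), whereas Ndufs1, the largest core subunit of complex I, fell by 0.33 (SE 0.07, limma adjusted p = 0.000907). At CT12 to CT16 the medians of these lists were -0.04, -0.03 and -0.04. With log2 Rn45s as a covariate 3, 0 and 3 members were higher.

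Transcript length moved with the day difference across all entries. In the shortest quartile of 9071 entries with a known length 39.1% were higher and 5.38% lower. In the longest quartile 1.28% were higher and 73.9% lower. The rank correlation of length and difference was -0.635 across entries, which are not independent. When the smooth trend with length and GC content was removed from each library, a step chosen after seeing the data, 568 entries were higher (6.26%) and 2731 lower (30.1%), of which 358 and 2046 were among the calls on the values as deposited. The counts of the 3 lists then became 25 higher and 4 lower, 14 higher and 21 lower, and 20 higher and 8 lower. The other headline lists kept their balance, with 18 lower and 1 higher for fat synthesis, 19 lower and none higher for fat oxidation, 12 lower and none higher for the fasting list, 12 higher and 1 lower for the acute phase and 10 higher and none lower for the Mup list. The part of transcript length, RNA integrity or library preparation in the length trend was not tested.

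**Figure D3:**
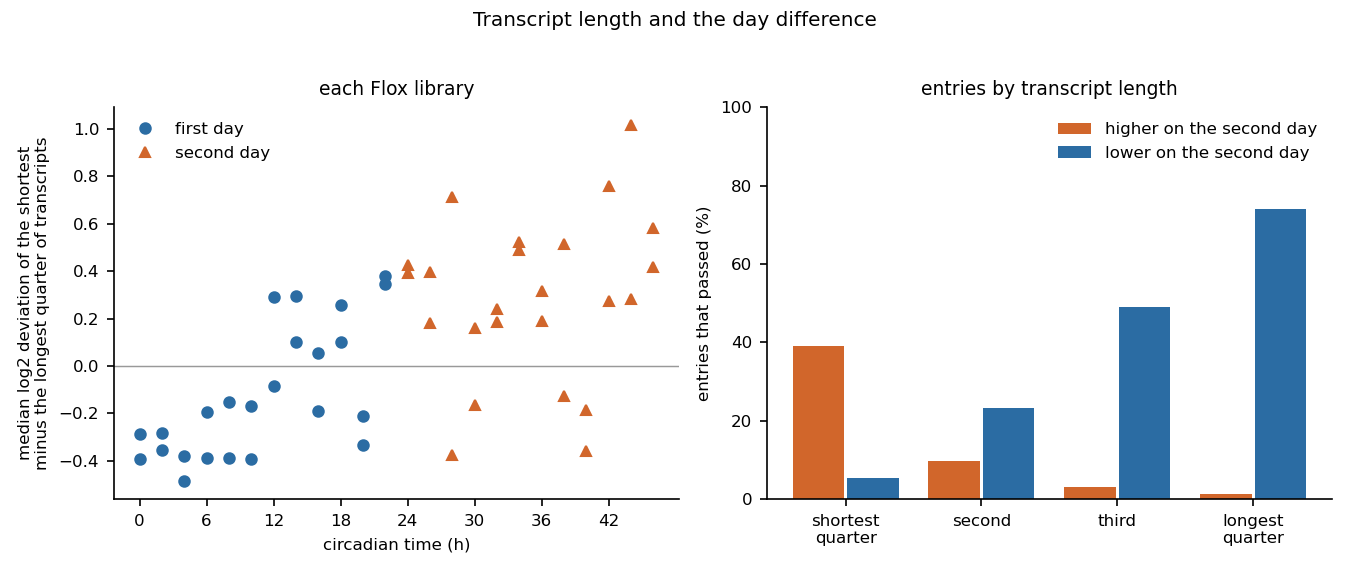
Left, the length measure of each Flox library against circadian time, which is the median log2 deviation of the shortest quartile of transcripts minus that of the longest; right, the percent of entries higher or lower on the second day in each quartile of transcript length. First-day libraries of CT0 to CT10 all lie below 0, and 73.9% of the longest quartile but 5.38% of the shortest were lower on the second day.

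Genes of long transcripts include those of chromatin regulators. Of 22 genes of H3K4 methylation, among them the methyltransferases and the demethylases, 14 were lower and none higher, with a median of -0.17. That is 63.6% lower, against 37.9% of all entries and 73.9% of the longest quartile of transcripts. Hcfc1, a subunit of the SET1 complexes, fell by 0.40 (SE 0.09, limma adjusted p = 0.00158) from 4.88 ± 1.20 to 3.49 ± 1.06 FPKM (SD, n = 18 each), and the methyltransferase Kmt2c fell by 0.32 (SE 0.07, limma adjusted p = 0.00163). With the length trend removed 5 of the 22 were lower and 1 was higher, where 30.1% of all entries were lower. After median-ratio scaling 6 were lower and 2 higher. Of 58 splicing genes 24 were lower (41.4%, near the 37.9% of all entries) and 8 higher, or 11 and 10 under median-ratio scaling, with the spliceosome core Prpf8 lower by a difference of -0.38 (SE 0.08, limma adjusted p = 0.000746).

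Markers of the sinusoidal endothelium, the cells that line the liver's capillaries, were lower. Of 16 tested of 22 listed, 13 were lower and none higher, with a median of -0.37, against 37.9% lower over all entries. Kdr, the main VEGF receptor (chr5:75932827-75978458, minus strand), ranged from 1.31 to 5.5 FPKM (median 2.44) on the first day and from 0.502 to 2.17 FPKM (median 1.30) on the second. The second-day livers all lay below the first-day median. Kdr fell by 0.64 (SE 0.11), the endothelial phosphatase Ptprb fell by 0.66 (SE 0.11), the water channel Aqp1 fell by 0.63 (SE 0.12) and the junction protein Cdh5 fell by 0.49 (SE 0.09), with limma adjusted p of 0.000353, 0.000347, 0.000498 and 0.000588. The summed level of the list was 59.4 to 136 FPKM (median 86.6) on the first day and 35.1 to 94.0 FPKM (median 70.2) on the second. In whole liver, fewer cells of a type and less RNA per cell cannot be told apart. The count was 13 lower with the length trend removed, 12 after median-ratio scaling, 9 after quantile normalization, 11 with log2 Rn45s as a covariate and 12 without CT0, CT2, CT24 and CT26. In the 12 Flox livers outside the matched times, described further on, the median of the list was -0.19, near the -0.18 over all entries there.

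Most markers of other resident cells did not pass. Of 19 genes of stellate cells and matrix 6 were lower and none higher, among them the pericyte gene Rgs5, which fell by 0.83 (SE 0.13, limma adjusted p = 0.000196) from 2.37 ± 1.09 to 0.872 ± 0.551 FPKM (SD, n = 18 each). Of 15 tested genes of Kupffer cells, the liver's macrophages, 2 were lower and none higher, with a median of -0.17. The defining gene Clec4f was at 14.2 ± 3.99 and 13.9 ± 4.65 FPKM (limma adjusted p = 0.713). The shares lower, 31.6% for stellate cells and matrix and 13.3% for Kupffer cells, are below the 37.9% of all entries. With the length trend removed 3 and 2 genes of these lists were lower, with medians of -0.13 and -0.30, where the endothelial list had -0.35. Whether these lists differ from the endothelial list was not tested. Of 23 listed genes of T, NK and B cells 1 reached a mean of 1 FPKM.

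Most clock genes had a fitted peak at about the same hour on both days. A cosine of 24 h was fitted to each day's 18 livers for 38 members of the clock lists, and 27 had an amplitude of at least 0.5 log2 units on both days. The median change of their peak was 0.15 h. Arntl peaked at CT22.7 on the first day and at 22.9 h on the second, with a change of 0.19 h (95% interval -1.07 to 1.44). Nr1d1 peaked at CT7.25 and 7.37 h, Dbp at CT10.1 and 10.4 h, Per2 at CT16.4 and 16.5 h and Cry1 at CT20.3 and 20.1 h. The intervals of these changes included 0, that of Dbp running from -0.68 to 1.29 h.

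Ciart, a repressor of ARNTL and CLOCK, is shown because its promoter is rich in the element of the core loop. Its RefSeq promoter (chr3:95882179-95882478, minus strand, GRCm38.p6) holds 3 copies of the E-box letters CACGTG, the palindrome that the ARNTL and CLOCK pair is known to bind, in capitals here.
Ciart: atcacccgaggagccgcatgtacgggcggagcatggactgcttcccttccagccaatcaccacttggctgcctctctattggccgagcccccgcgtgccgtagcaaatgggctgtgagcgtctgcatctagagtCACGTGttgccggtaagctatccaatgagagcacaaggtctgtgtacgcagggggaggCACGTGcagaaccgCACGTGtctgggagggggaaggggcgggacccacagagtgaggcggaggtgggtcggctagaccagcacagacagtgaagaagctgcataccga
At least 1 E-box of these letters, searched on both strands, occurs in 7.15% of the promoters. Ciart ranged from 0.151 to 18.2 FPKM on the first day and from 0.101 to 14.2 FPKM on the second. It peaked at CT11.6 and 11.4 h, with amplitudes of 1.88 (SE 0.20) and 1.83 (SE 0.20) log2 units. Its mean difference was -0.05 (SE 0.09, limma adjusted p = 0.631).

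For 3 of the 27 genes the interval of the change in peak excluded 0. The peak came later by 1.85 h for Nr1d2 (95% interval 0.64 to 3.06) and by 1.87 h for Wee1, a cell cycle kinase under clock control (0.22 to 3.52). It came earlier for Nr0b2, a bile acid responsive repressor, with a change of -4.12 h (-7.66 to -0.57). These intervals are not adjusted for the 27 genes, and none of the clock genes passed the adjusted test of the cosine described below. The fitted amplitude differed by -0.40 for Nr1d2 (95% interval -0.79 to -0.01) and by -0.38 (-0.68 to -0.09) for Rora, a ROR receptor outside the 27, with limma F test adjusted p of 0.123 and 0.112. In mean level, of 7 activators and ROR-element genes 3 were lower and none higher, of 11 repressors 6 were lower and none higher, and of 20 PAR bZIP factors and clock outputs 8 were lower and 1 was higher. These are shares lower of 42.9%, 54.5% and 40%, beside 37.9% of all entries. Under median-ratio scaling 3 of each list were lower, and 3 of the outputs were higher. Per2 fell by 0.32 (SE 0.10, limma adjusted p = 0.00777) and was lower at 9 of 9 times, Per3 fell by 0.35 (SE 0.10, limma adjusted p = 0.00439), Cry2 fell by 0.30 (SE 0.09, limma adjusted p = 0.00674) and Bhlhe40, a repressor also induced by feeding and hypoxia, fell by 0.54 (SE 0.13, limma adjusted p = 0.00163). The calls of Per2 and Cry2 were lost under both scalings. Arntl, Nr1d1, Dbp, Cry1 and Per1 did not pass, with limma adjusted p of 0.383, 0.165, 0.236, 0.183 and 0.377.

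**Figure D4:**
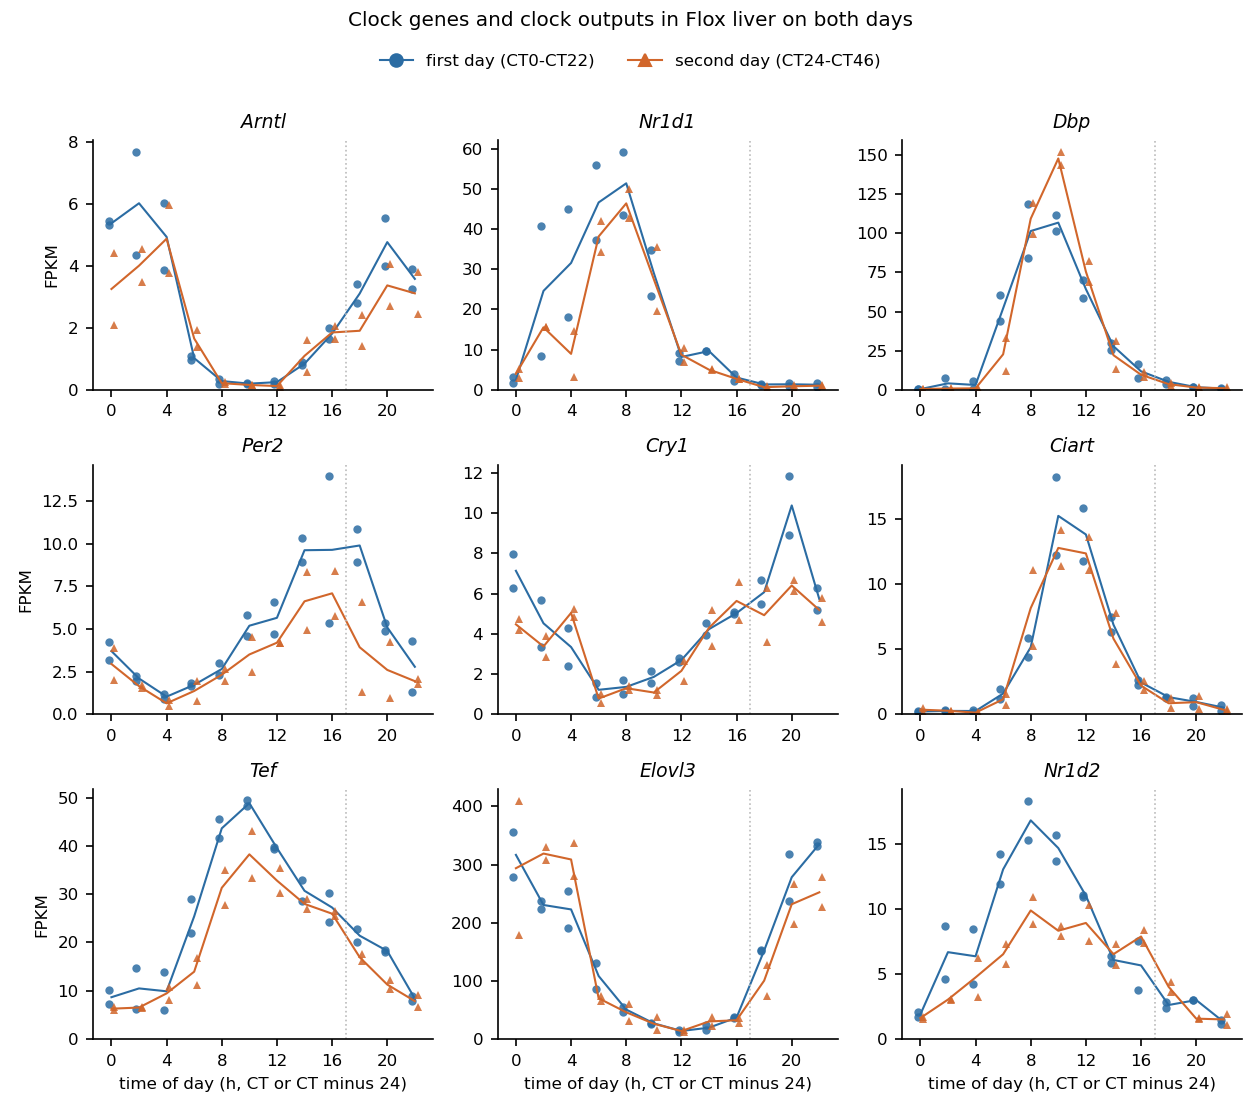
Level of 9 clock genes and outputs in every Flox liver by time of day, in FPKM; circles are first-day livers, triangles second-day livers, and lines join the means of the 2 livers of a time. Arntl is high near 0 h and Dbp near 10 h on both days, with fitted peaks of 22.7 and 22.9 h and of 10.1 and 10.4 h, and the dotted line marks where the 9 matched times end.

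Across all entries, no gene passed the test of a 24 h cosine that differed between the days (0% of 9414; limma F test, 2105 at an unadjusted p under 0.05, smallest adjusted p 0.0987). That outcome rested on single livers. Without the liver labelled CT28 B 1437 entries passed, among them 5 of the 38 clock members, without CT34 B 570 passed and without CT30 A 2. In the liver CT28 B the length measure was -0.38 and in CT28 A 0.71. A freer test, in which each of the 9 times had its own day difference, called 1933 entries (20.5%), with 3329 at an unadjusted p under 0.05. That count was 1138 without the liver CT0 B and 3643 without CT28 B. The smallest adjusted p belonged to genes that were lower early in the day and level later. Capza2, a subunit of the actin capping protein, differed by -1.04 at CT0 to CT4, -0.74 at CT6 to CT10 and 0.27 at CT12 to CT16 (limma F test, adjusted p = 0.000343). Agmo, an ether lipid oxygenase, differed by -1.31, -1.01 and 0.01 (adjusted p = 0.000396). Cyp4a14 differed by -2.19, -2.47 and -2.71 over the 3 windows and its course did not pass (adjusted p = 0.453).

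The 12 Flox livers outside the matched times, CT18 to CT22 and CT42 to CT46, give a further pair of days from other animals. Several of their second-day libraries stood apart. Rn45s was at 1246 to 1690 FPKM in the 6 first-day livers, and on the second day at 17769 FPKM in CT42 B, 9027 in CT46 A, 7610 in CT46 B and 4720 in CT44 B. CT42 B held Alb at 6921 FPKM, under every liver of the matched times, and CT44 B had a length measure of 1.02. The part of these libraries in the differences was not tested beyond leaving them out. Of the entries tested there, 23 were higher and 528 lower, with 2891 at an unadjusted p under 0.05. These calls rested on single livers. None was left without CT42 B or without CT44 B (limma, 2242 and 2283 at an unadjusted p under 0.05), nor without CT18 C or CT20 A, while 2249 were called without CT42 A. With log2 Rn45s as a covariate 1 was higher and none lower. Of the 1261 entries higher on the second day at the matched times, 937 had a positive difference in these animals, where 28.3% of all entries did. Of the 3567 lower on the second day at the matched times, 3336 had a negative difference, where 71.7% of all entries did. The median over all entries there was -0.18. The length trend was present there too, with a rank correlation of -0.582. Saa1 differed by 2.95 (SE 1.10) and Mt1 by 3.35 (SE 0.67), with limma adjusted p of 0.119 and 0.039. Fasn fell by 1.31 (SE 0.35, limma adjusted p = 0.0478), and Gbe1 fell by 0.94 (SE 0.21, limma adjusted p = 0.0371). Without CT42 B the values of Mt1, Fasn and Gbe1 were 3.76, -0.94 and -0.93, and none passed (limma adjusted p = 0.0744, 0.0808 and 0.0809). Saa1 passed without CT46 A, at 3.98 (limma adjusted p = 0.00188). Cyp4a14 differed by -0.42 (SE 0.91) and the larger Mup15 entry by -0.25 (SE 0.30), with limma adjusted p of 0.781 and 0.576. The Mup list, with a median of 0.49 in the matched times, had a median of -0.33 here.

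In LKO liver the same comparison, on the values as deposited, went largely the other way. Over the 72 libraries of both genotypes at the matched times the day difference differed by genotype for 6154 entries (65.4%), of which 4967 were more positive in LKO. The day difference differed by genotype for 5552 entries after median-ratio scaling and for 5630 after quantile normalization. Their direction was not counted under these scalings. In LKO alone 4175 of all 9414 entries were higher and 937 lower. Of the 3567 entries lower in Flox, 1939 were called higher in LKO, and of the 1261 higher in Flox, 279 were called higher in LKO as well. Both counts are to be read beside the 4175 of 9414 entries that were higher in LKO. The median difference over all entries was 0.18 in LKO. Cyp4a14 went from -2.46 in Flox to 0.69 (SE 0.43) in LKO, Cd36 from -1.08 to 0.70 (SE 0.18) and Acot1 from -1.03 to 1.77 (SE 0.35), with limma adjusted p for the difference between genotypes of 1.6e-05, 2.08e-07 and 6.77e-07. Scd1, at -0.04 (SE 0.31) in LKO, also differed between genotypes (adjusted p = 0.0059). Saa1 rose by 2.37 in Flox and differed by 1.25 (SE 0.56) in LKO, and that difference between genotypes did not pass (adjusted p = 0.283). Of 31 acute phase genes 11 differed between genotypes, of 26 fat synthesis genes 20, and of 32 fat oxidation genes 24, beside the 65.4% of all entries. Length had a rank correlation of 0.112 with the LKO difference.

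**Figure D5:**
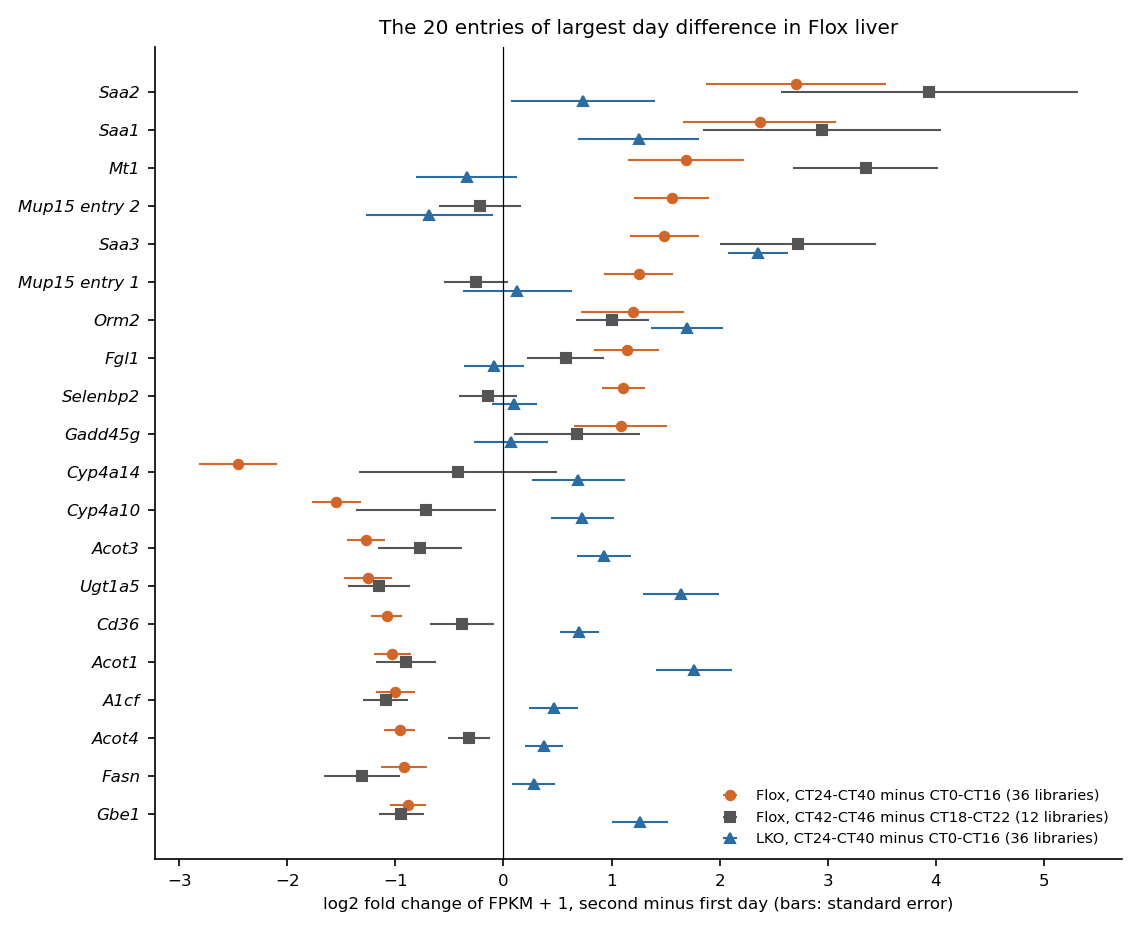
Difference between the second and first day, in log2 units of FPKM + 1 with its standard error, for the 10 entries of largest rise and the 10 of largest fall in Flox liver by the naming rule. Orange circles are the 36 matched Flox libraries that chose the entries, grey squares the 12 Flox libraries of CT18 to CT22 and CT42 to CT46, and blue triangles 36 LKO libraries. Cyp4a14 lies at -2.46, -0.42 and 0.69, and Saa1 at 2.37, 2.95 and 1.25.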

How the data were processed

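The deposited table holds FPKM values for 13094 entries, which the authors made with FastQC, Trimmomatic, HISAT2 and Cufflinks on mm10, per the submitters' processing notes; their versions were not stated there. Libraries were made with a stranded messenger RNA kit, per the labels' protocols. In this comparison log2(FPKM + 1) was fitted in limma 3.58.1 (R 4.3.3) with time of day as a factor, trend and robust moderation, and two-sided tests, after entries averaging under 1 FPKM over the 36 libraries were dropped. FPKM give no reads, so no count model was run, and intervals cover the spread between livers only. The fits were tested on simulated data. The simulated noise was independent between entries and libraries, so random variation that many entries share within a library was not covered. Transcript lengths came from GENCODE M21, promoters from RefSeq, and gene names from the table, where repeated symbols are kept as separate entries. The length trend was a loess curve (span 0.3) per library. Named genes were the 10 largest rises and falls among called entries that averaged 2 FPKM or more and moved one way at 8 or more times of day, the 8 smallest p of the other tests, up to 4 per list, and clock members; others were named for their role. Some genes chosen in these ways are not reported here. The members and the 49 lists were chosen with earlier results of these data known. Libraries correlated at 0.907 to 0.992, and none was identical to another. The letters do not pair the libraries: of 9 correlations between letter B livers of matched times, taken as deviations from their time and day means, 4 exceeded 0.1 (median -0.05).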

Additional observations from a re-analysis of the deposited data

Results flagged for a closer look

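In the Flox livers of CT42 to CT46 Saa1 stood at 45.6 FPKM in the liver CT46 A, far below the others, which held 916 to 5075 FPKM. It was the 1 group with an outlying liver among 40 groups of 6 libraries tested by Dixon's rule, which flags about 1 group in 20 by chance.

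The day difference differed between LKO and Flox for 14 of the 20 entries with the largest change in Flox by the naming rule, by limma's test of genotype by day over 72 libraries, which called 65.4% of all entries. The 20 were chosen on Flox values that also enter this test, so the count is a description. All 10 of the largest falls were more positive in LKO, where the LKO minus Flox value was 3.15 for Cyp4a14, 2.28 for Cyp4a10, 2.20 for Acot3, 2.90 for Ugt1a5, 1.78 for Cd36, 2.79 for Acot1, 1.47 for A1cf, 1.33 for Acot4, 1.20 for Fasn and 2.14 for Gbe1. Among the 10 largest rises 4 were more negative in LKO, with -2.03 for Mt1, -2.24 for the smaller Mup15 entry, -1.23 for Fgl1 and -1.01 for Selenbp2. The 8 entries with the smallest p for this test were named by rule. The P450 genes Cyp3a41a, Cyp2c55 and Cyp4a31 were more positive in LKO by 4.21, 2.59 and 2.15, the carbonic anhydrase Car2 by 1.93, the carboxylesterase Ces2g by 1.96 and the monooxygenase Fmo2 by 2.14. The natriuretic peptide receptor Npr2 differed by -1.56 and the glutamate transporter Slc1a2, a gene of the central vein, by -1.62.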

How the results depend on the processing

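Of the 81 called genes named here, 77 kept their direction and their call with each of the 36 libraries left out in turn. The exceptions were Orm2, Gadd45g, Alb and Cyp4a31. Counts of higher and lower entries ran from 1084 to 1489 and from 3288 to 3784 over these, and from 754 (without CT10 and CT34) to 1502 and from 2707 to 3749 with each time of day left out. Both counts stayed within 1.5 times of those reported under other pseudocounts, with no filter, with a cosine in place of the time factor, with all 12 times and with plain moderation. Median-ratio scaling gave 2528 higher and 1848 lower, quantile normalization 2148 and 2107, log2 Rn45s as a covariate 128 and 717, and CT12 to CT16 alone 0 and 0. Among alternatives chosen after seeing the data, removal of the length and GC trend left 568 higher, and leaving out CT0, CT2, CT24 and CT26 left 196 and 1034. A minimum of 5 FPKM, which tests fewer entries, gave 1482 lower, 1247 for the time course and 3206 for genotype by day. The cause of the other changes was not tested.

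The letter as a replicate block gave 1192 higher and 3416 lower, but letter B correlations do not show that the letters pair the livers. The livers of letter B alone, 18 of 36, gave 4 and 20, and those of A and C alone 1 and 4. The time course count ran from 1138 without CT0 B to 3643 without CT28 B, and the 24 h cosine count from 0 to 1437, the latter without CT28 B; it was 1 with no filter and 1 after quantile normalization. At the times left out of the matching, the 551 calls became 1 with log2 Rn45s as a covariate and ran from 0 to 2249 with each of the 12 livers left out, alternatives chosen after seeing the data. At CT12 to CT16 alone the sign turned, uncalled, for Agmo (0.0064), Capza2 (0.27), Nr1d2 (0.088), Rora (0.076) and Wee1 (0.0024). With log2 Saa1, itself an acute phase gene, as a covariate it turned, uncalled, for Saa2 (-0.050), Orm2 (-0.29) and Lcn2 (-0.26). Of named calls, 31 were lost with log2 Rn45s as a covariate, 26 without CT0, CT2, CT24 and CT26, and 13 with the length trend removed. With fewer libraries, 77 were lost with letters A and C alone, 73 with letter B alone, 28 at CT0 to CT4 alone and 13 at CT6 to CT10 alone. At CT12 to CT16 alone 76 were lost, besides the 5 whose sign turned. A sign change in a gene uncalled both ways was not counted as a reversal. FPKM without reads give no counting error, so low genes are limited by an unknown depth.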

Other observations

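Genes of the hepatocyte's zones were lower at about the share of all entries or below it. Of 18 genes typical of hepatocytes around the central vein 7 were lower and none higher, and of 19 typical of the portal side 6 were lower and 2 higher, set against 37.9% lower over all entries; under median-ratio scaling the balance was 3 lower and 2 higher, and 4 lower and 4 higher. Cldn2, a paracellular water and cation channel, was at 19.2 ± 4.65 FPKM on the first day and 13.6 ± 5.93 FPKM on the second (SD, n = 18 each; difference -0.54, SE 0.13, limma adjusted p = 0.00184). Oat, which breaks down ornithine near the central vein, fell by 0.41 (SE 0.11, limma adjusted p = 0.00521), Pigr, the receptor that carries immunoglobulin A into bile, fell by 0.39 (SE 0.07, limma adjusted p = 0.000526), and Fbp1 of gluconeogenesis fell by 0.44 (SE 0.12, limma adjusted p = 0.00326). Il1r1, the interleukin 1 receptor, rose by 0.49 (SE 0.14, limma adjusted p = 0.00571) and Cebpb, a C/EBP factor of the acute phase, rose by 0.42 (SE 0.13, limma adjusted p = 0.00869). The 17 tested NF-kB and inflammatory genes had 3 higher (17.6%) and 4 lower (23.5%), against 13.4% and 37.9% of all entries. Under median-ratio scaling 5 were higher and 1 was lower.

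Of 41 genes of the unfolded protein response and the ER chaperones 5 were higher and 11 lower. Median-ratio scaling gave 14 higher and 5 lower, where 2528 of all 9414 entries were higher and 1848 lower. The 12.2% higher is near the 13.4% of all entries, and the 26.8% lower is below their 37.9%. The medians of this list were -0.26, 0.21 and 0.07 at CT0 to CT4, CT6 to CT10 and CT12 to CT16. The time course of 15 of the 41 differed between the days, by the test that called 20.5% of all entries. Of 33 ER to Golgi transport genes 18 were lower and 3 higher, or 5 and 7 under median-ratio scaling. Their 54.5% lower in the values as deposited is above the 37.9% of all entries. Hspa5, the ER chaperone BiP, was at 261 ± 139 and 249 ± 127 FPKM (SD, n = 18 each; limma adjusted p = 0.994).

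Within a day, Saa1 was set against Cyp4a14, Cyp4a10 and Cd36, 6 relations chosen after the values were seen, of which 1 passed adjustment over the 6. This was Cyp4a10 on the first day. Across the 18 first-day livers Pearson's r of the log2 values was -0.67 (permutation p = 0.00208, adjusted over 6 relations 0.0125) and Spearman's rho -0.62 (permutation p = 0.00713, adjusted 0.0428), with r of -0.57 without the 2 livers farthest from the median of Saa1. For Cyp4a10 across the 18 second-day livers r was -0.54 (permutation p = 0.0205, adjusted 0.0583) and rho -0.48 (permutation p = 0.0426, adjusted 0.0832), with r of -0.44 without the 2 farthest. For Cyp4a14 r was -0.38 and -0.37 on the first and second day, with permutation p adjusted over the 6 of 0.151 for each. For Cd36 r was -0.51 on the first day (permutation p adjusted over the 6, 0.0583) and -0.22 on the second (0.392), where it was -0.08 without the 2 farthest livers. Each day's 18 livers span 9 times of day. The part of a shared daily course in these relations was not tested.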
